A study of Caenorhabditis elegans with 24 samples.

Results

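The comparison described here is that of fasted with fed worms on RNA interference (RNAi) plates against Cel-Rheb, the worm's Rheb, in wild-type N2 Caenorhabditis elegans. It compares 8 of the 24 arrays of the study, 4 labelled N2-Cel-RhebRNAi-fed and 4 labelled N2-Cel-RhebRNAi-fasting. The fed worms ate freely, the fasted worms went without food for 48 h, and both were grown at 20 °C and collected at day 4 of adulthood, so that all 8 samples share the Rheb knockdown. The remaining arrays hold control RNAi worms (5 fed, 5 fasted) and TOR RNAi worms (3 fed, 3 fasted) of the same strain, age and temperature. The response on Rheb RNAi is set against theirs. They also enter the estimate of spread behind every p-value, the choice of probe set per gene and the filter of genes tested. Each array read messenger RNA of whole worms from 5 µg of total RNA on the Affymetrix C. elegans Genome Array, and 12277 of 17118 genes read were bright enough to be tested. The labels call the samples biological replicates of independent experiments.

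Rheb is a small GTPase that switches on the kinase TOR, which joins the supply of amino acids and other nutrients to protein synthesis and growth and which holds back autophagy and lysosome function when food is plentiful. On RNAi plates worms eat bacteria that make double-stranded RNA, and the matching worm transcript is lowered. The worm's intestine digests bacteria with secreted and lysosomal hydrolases, stores fat, makes yolk, detoxifies and defends against microbes. Fasted worms live on stored fat. Because whole worms were measured, fewer cells of a type and less RNA per cell cannot be told apart.

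Values below are log2 intensities, and a change is the log2 difference of the fasted from the fed group mean with its standard error (SE) from limma. Rose, fell and changed are used for a p-value under 0.05 after Benjamini-Hochberg adjustment over the 12277 genes, and the adjusted p given is limma's. Median intensities ranged from 53.05 to 54.69 on the 4 fed and from 51.05 to 53.13 on the 4 fasted Rheb RNAi arrays, and precision is limited by how many arrays there are. Array 3 of the fed Rheb group had the largest excess of 3' over middle probe signal of the ubiquitin control RNA, 3.60 against 1.71 to 2.79 on the other 23 arrays, a measure that grows as RNA breaks down. Array 3 of the fasted Rheb group was at 2.44 for ubiquitin, within that range. For the catalase control it was second highest, at 1.53 after 1.85 on fed array 3, and for Gapdh it was highest, at 0.03. The part of these arrays in the results was not tested beyond leaving them out, singly and together. Markers of the tissues of an adult hermaphrodite were present: the yolk gene vit-2 had means of 14.36 in fed and 14.20 in fasted worms, the eggshell gene cpg-2 14.38 and 14.35, and the synaptic gene snb-1 12.46 and 12.45.

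The targeted gene was checked on both of its probe sets. The dimmer probe set of rheb-1 was lower than in control RNAi worms by -2.55 ± 0.28 in fed and -1.85 ± 0.28 in fasted worms, with adjusted p = 8.55e-07 and 5.26e-05, and a two-sided exact permutation test of the arrays gave p = 0.00794 in both. The brighter probe set was at -0.30 ± 0.24 and -0.50 ± 0.24 and was not called in either state. Between fasted and fed Rheb RNAi worms neither probe set was called, at 0.46 ± 0.30 and -0.24 ± 0.25, and the same was true of let-363, the gene of TOR itself, at 0.10 ± 0.13.

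Fasting on Rheb RNAi lowered many genes by 2-fold or more and raised few by as much. The count of all rises depended on the fit. Of the 12277 genes 1461 changed, which is 11.9% of those tested. Of these 397 rose (3.23%) and 1064 fell (8.67%). At 2-fold or more 798 changed (6.5%), of which 61 rose (0.497%) and 737 fell (6.0%). The median change of all genes was 0.09. The fed and fasted arrays did not overlap for 1797 genes (14.6%), and 1142 (9.3%) were both called and without overlap. The arrays share numbers from 1 to 4 between fed and fasted worms. Deviations from group means correlated at 0.44 to 0.73 between arrays of the same number. With the number as a block, 2960 genes were called, 1502 of them higher, which is 50.7% of the calls in place of 27.2%. With a block within each RNAi plate 58.8% of the calls were rises. Without both arrays numbered 3, 822 were called, 101 of them higher. The higher side depended on single arrays, with 175 genes without array 3 of the fed group, 217 and 218 without arrays 2 and 3 of the fasted group, and 700 without array 2 of the fed group. With every array centred on its median, 39.2% of the calls were rises in place of 27.2%.

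**Figure D1:**
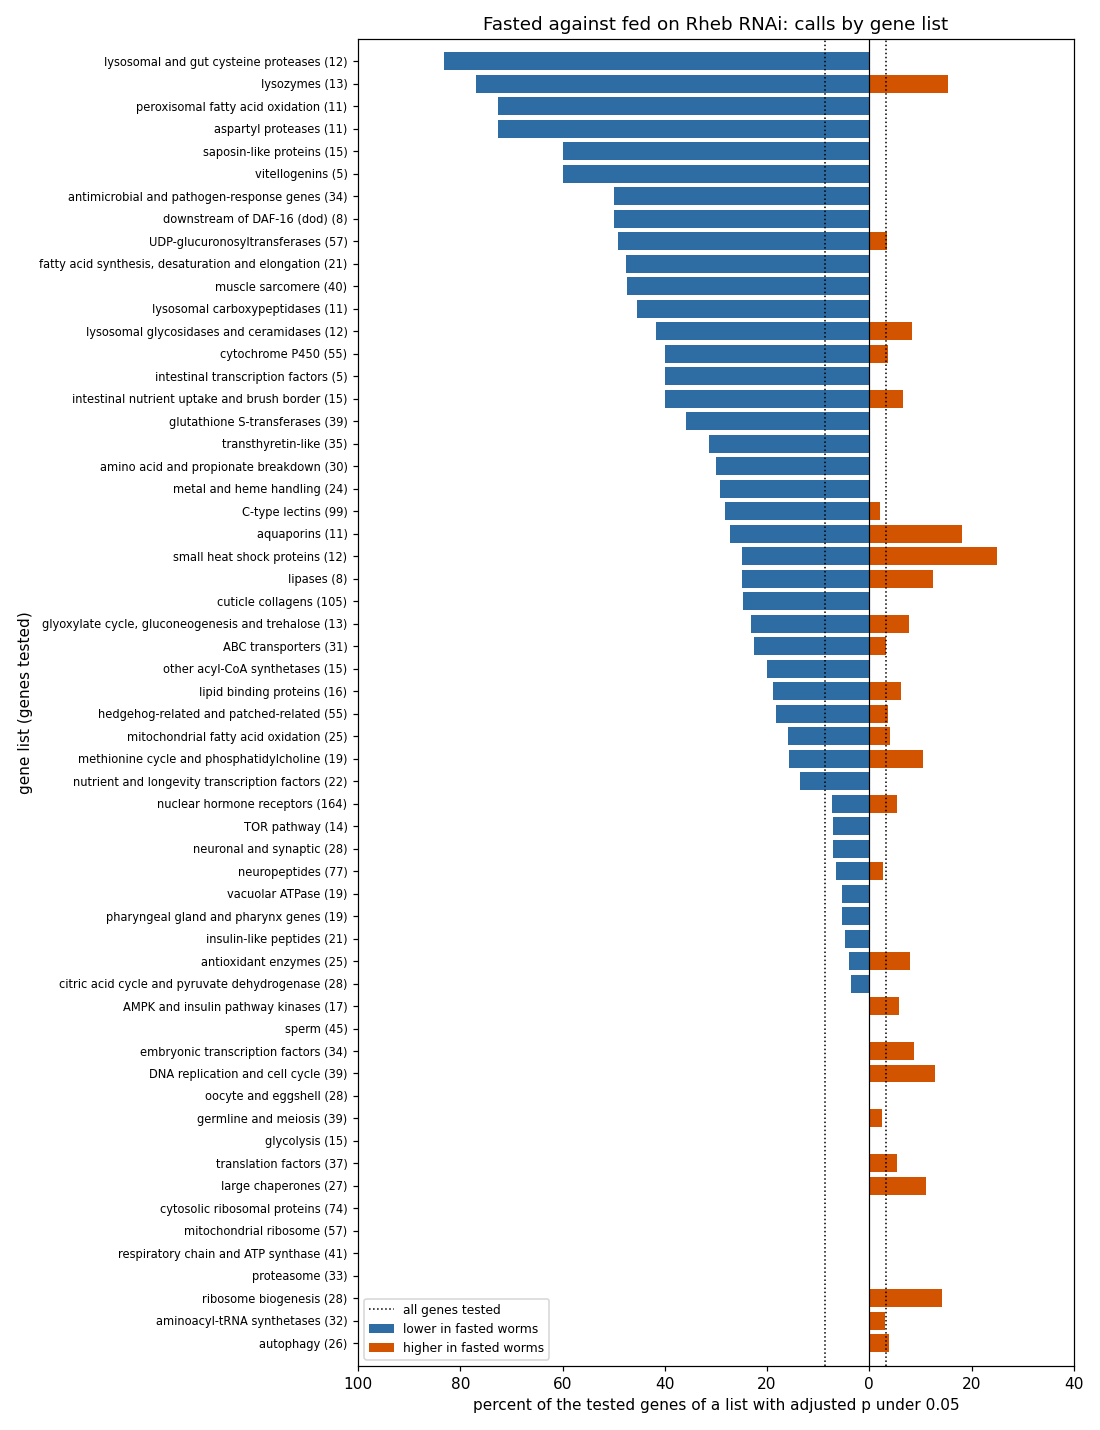
Share of each gene list that fell (bars to the left) or rose (bars to the right) in fasted against fed Rheb RNAi worms, in percent of the genes tested (number in brackets). The dotted lines are the shares among all 12277 genes, 8.67% lower and 3.23% higher, and the cysteine proteases, with 10 of 12 lower, have the longest bar to the left.

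Digestive proteases were among the deepest falls. Of 12 lysosomal and gut cysteine proteases 10 fell and none rose, with a median change of -2.39 against 0.09 for all genes. The cathepsin B-like protease gene cpr-1 read 13.61, 13.54, 13.83 and 13.79 on the 4 fed arrays and 6.23, 6.47, 7.19 and 7.14 on the 4 fasted arrays. All fasted arrays lay far below all fed arrays, the change being -6.94 ± 0.27 (adjusted p = 4.60e-14), a 122-fold fall. cpr-9 read 14.07, 14.15, 14.55 and 14.27 on the fed and 7.79, 8.35, 8.84 and 8.50 on the fasted arrays. It separated the groups as cleanly, by -5.89 ± 0.26 (adjusted p = 1.57e-13). cpr-4, another cathepsin B-like gene, read 14.17, 14.33, 14.47 and 14.20 on fed and 11.71, 11.54, 11.59 and 11.32 on fasted arrays. Its arrays did not overlap either, at -2.75 ± 0.17 (adjusted p = 5.53e-11). cpr-5 (-5.98), cpr-2 (-3.76), cpr-8 (-3.40), cpr-3 (-2.02) and cpr-6 (-1.93) fell too. cpl-1, the cathepsin L gene, fell by 0.82, and its other probe set was at -0.47. cpz-2, a cathepsin Z-like gene, fell by 0.94, a call lost in the fit of the 8 arrays alone. The members not called were cpz-1 (-0.16) and tag-196 (0.02).

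Of 11 aspartyl proteases tested 8 fell and none rose, with a median of -2.45. asp-17 read 9.97, 9.24, 10.205 and 9.85 on the fed arrays and 2.75, 4.06, 3.31 and 3.65 on the fasted arrays. It ended near the array's floor, so its change of -6.37 ± 0.30 is better read as a fall of at least 5.80, with values below log2 4 set to 4. asp-3, a cathepsin D-like lysosomal protease gene, read 12.10, 12.42, 12.79 and 11.86 when fed and 8.16, 8.78, 8.85 and 8.53 when fasted. The groups were apart on every array, by -3.71 ± 0.25 (adjusted p = 1.45e-10). asp-13 (-5.26), asp-5 (-3.19) and asp-1 (-2.45) fell as well, asp-13 by at least 4.38 as its fasted mean was under log2 4. asp-4, which encodes another cathepsin D-like protease, was at -0.35 ± 0.17 and was not called, though with the replicate block it was (limma adjusted p = 0.0298). Among the serine carboxypeptidases, 5 of 11 fell and none rose. ctsa-1.2, cathepsin A-like, had the largest change of them, -5.69 ± 0.30 (adjusted p = 3.80e-12), and as its fasted mean lay under log2 4 the fall was at least 5.46. ctsa-1.1, of the same family, was at -0.17 ± 0.11 and was not called.

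Lysozymes, which break open bacterial walls, fell in 10 of 13 cases and rose in 2, with a median of -4.08. lys-7 read 14.72, 14.62, 14.88 and 14.70 on the fed arrays and 7.19, 8.72, 9.39 and 9.13 on the fasted arrays. The fed values were tight and the fasted ones spread over more than 2 log2 units, with array 1 lowest, and the change was -6.13 ± 0.32 (adjusted p = 2.33e-12). lys-1 read 12.42, 12.13, 13.22 and 13.001 on fed and 8.47, 8.05, 8.57 and 9.35 on fasted arrays. It fell without overlap, by -4.08 ± 0.29 (adjusted p = 3.37e-10). lys-4 (-6.13), ilys-5 (-5.36), lys-2 (-5.27), lys-8 (-4.2), lys-10 (-4.09) and lys-5 (-3.38) also fell. The last 2 had fasted means under log2 4, so that they fell by at least 2.99 and 2.68. With values below log2 4 set to 4 the median of the list was -2.99 and 9 members fell. The probe sets of lys-7, lys-4, lys-2 and ilys-5 are of types that can match related transcripts, and without such probe sets 4 of 7 lysozymes fell and 1 rose. The 2 that rose, ilys-2 (1.83 ± 0.57) and lys-3 (1.26 ± 0.32), were picked after their values were seen. ilys-2 read 8.70, 6.91, 8.48 and 8.07 on the fed and 11.24, 8.82, 9.69 and 9.75 on the fasted arrays. Every fasted array was above every fed array, if by little, and the adjusted p was 0.0379.

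Saposin-like proteins, small lipid-binding proteins of which some open pores in bacteria, fell in 9 of 15 cases with none rising. spp-12 read 12.74, 13.32, 13.24 and 13.88 on the fed arrays and 6.75, 5.78, 6.07 and 6.89 on the fasted arrays. Fed and fasted arrays stood about as far apart as for cpr-1, by -6.93 ± 0.43 (adjusted p = 4.11e-11). spp-14 read 11.14, 10.92, 11.49 and 11.28 and 7.27, 7.31, 7.90 and 7.19 on fed and fasted arrays. It also fell without overlap, by -3.79 ± 0.16 (adjusted p = 1.57e-13). spp-23 (-5.31), spp-4 (-3.84), spp-8 (-2.66) and spp-16 (-2.29) fell. spp-15 (-0.05) was not called. spp-10 was not called on its brightest probe set (-0.20), but its 2 other probe sets were at -2.72 and -0.22, the former called, and the mean of its probe sets was called too. For spp-1 the probe sets disagreed, the brighter being at -2.49 and the other at -0.42. Of the lysosomal glycosidases and ceramidases 5 of 12 fell and 1 rose. The acid ceramidase gene asah-1 read 9.23, 8.83, 9.08 and 9.25 when fed and 4.78, 4.17, 4.98 and 4.98 when fasted. It was lower on every fasted array, by -4.37 ± 0.29 (adjusted p = 1.17e-10). asah-2 (-2.56) and the acid alpha-glucosidase genes aagr-1 (-2.28) and aagr-2 (-1.47) fell too. hex-1, the beta-hexosaminidase gene, rose by 0.74 ± 0.20, a call lost in 3 of 22 alternatives, among them that without array 3 of either group.

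C-type lectins, secreted sugar-binding proteins with many intestinal members, fell in 28 of 99 cases and rose in 2. The latter, clec-40 (0.61) and clec-185 (0.56), were picked after their values were seen. clec-62 read 11.42, 11.24, 11.75 and 10.95 on fed arrays and 6.89, 7.71, 7.96 and 7.84 on fasted arrays. The groups did not overlap, and the change was -3.74 ± 0.23 (adjusted p = 3.40e-11). clec-60 (-5.09), clec-41 (-4.64), clec-51 (-3.56) and clec-76 (-3.48) fell too, clec-41 and clec-51 by at least 4.42 and 3.32 as their fasted means were under log2 4. The 2 uncalled lectins of highest mean, clec-87 (0.04) and clec-88 (0.16), had changes close to the median of all genes.

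**Figure D2:**
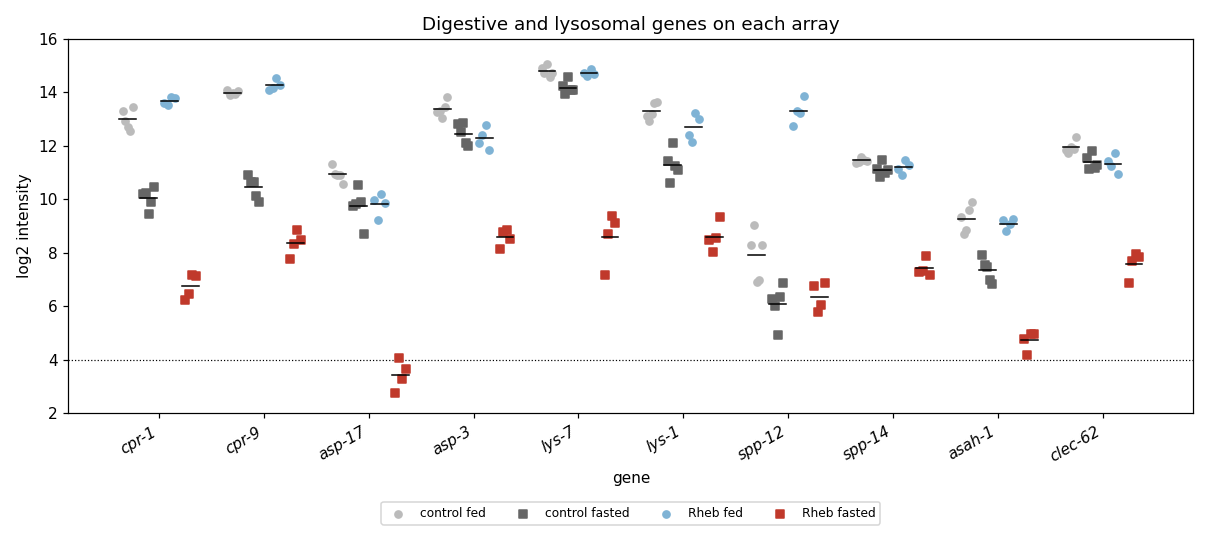
Log2 intensity of 10 digestive and lysosomal genes on every control and Rheb RNAi array, with black bars at group means and a dotted line at the testing limit of log2 4. For each gene all 4 fasted Rheb RNAi arrays (red) lie below all 4 fed ones (blue), and cpr-1 falls from 13.69 to 6.76.

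Genes for other parts of the lysosome were mostly not called. Of 19 vacuolar ATPase genes, whose proteins acidify lysosomes, 1 fell and none rose, with a median of -0.04. That gene, vha-6, encodes the subunit of the intestinal lumen membrane. It read 8.22, 8.23, 9.25 and 8.38 on the fed and 7.16, 7.04, 7.36 and 7.47 on the fasted arrays. Fed array 3 stood above the other fed arrays, all fasted arrays lay below all fed ones, and the change was -1.27 ± 0.28 (adjusted p = 0.00321). vha-1 and vha-9 were at -0.04 and 0.02 and were not called. Of 26 autophagy genes 1 rose and none fell, with a median of 0.22 against 0.09 for all genes. The change was above 0 for 24 of the 26, and for 7579 of all 12277 genes. The gene that rose was atg-16.1, at 0.60 ± 0.15, a call lost in the fit of the 8 arrays alone, without fed array 3 and without both arrays numbered 3. At an unadjusted p under 0.05, 5 of the 26 were higher, as were 1606 of all 12277 genes. lgg-1, which encodes the ubiquitin-like protein that coats autophagosomes, was at 0.09 ± 0.10 and was not called.

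Of 15 markers of nutrient uptake and the brush border 6 fell and 1 rose. ges-1, the gut esterase gene, read 6.96, 7.04, 7.77 and 7.55 when fed and 5.47, 5.47, 5.99 and 5.78 when fasted. It was lower on all fasted arrays, by -1.65 ± 0.24 (adjusted p = 2.31e-05). act-5, the actin of intestinal microvilli, read 10.71, 10.88, 10.41 and 9.92 on fed and 9.69, 9.59, 8.36 and 8.84 on fasted arrays. Its groups did not overlap, though fasted array 1 came close to fed array 4, and it fell by 1.36 ± 0.30. The peptide transporter gene pept-1 (-1.79 ± 0.54), the intermediate filament gene ifc-2 (-1.79), the aquaporin gene aqp-4 (-1.0) and the acid phosphatase gene pho-1 (-0.85) fell. The calls of pept-1, aqp-4 and pho-1 were lost in 7, 5 and 3 alternatives, and of ifc-2's 2 other probe sets 1, at -0.56, was not called. Without both Rheb arrays numbered 3 the list had 3 falls and no rise. ifp-1 rose by 0.60 with overlapping arrays and lost its call in 6 alternatives. erm-1 (0.06) and eps-8 (-0.21), of the microvillar scaffold, were not called.

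Of 5 transcription factors of the intestine 2 fell. elt-2, the GATA factor that drives most intestinal genes, read 8.25, 8.14, 8.84 and 7.90 on the fed and 7.18, 7.61, 7.77 and 7.22 on the fasted arrays. The groups were separate but close, at -0.84 ± 0.19 (adjusted p = 0.00409), and the call was lost in the fit of the 8 arrays alone. pqm-1, a zinc-finger factor, fell by 0.96 ± 0.26, a call lost in 3 alternatives. elt-7, elt-2's close relative, was at -0.27 ± 0.16 and was not called. The other members, end-1 (0.61) and end-3 (0.26), went the other way and were not called. With the replicate block end-1 was called higher (limma adjusted p = 0.0256).

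Yolk protein genes, expressed in the adult intestine for export to oocytes, fell in 3 of 5 cases. vit-1 read 10.47, 10.90, 11.59 and 10.87 on fed arrays and 7.62, 7.54, 7.76 and 7.01 on fasted arrays. It dropped on all fasted arrays, by -3.48 ± 0.24 (adjusted p = 2.52e-10). vit-5 and vit-4 fell by 1.34 ± 0.14 and 1.31 ± 0.14, read by probe sets that may match both. vit-2 read 14.24, 14.46, 14.53 and 14.20 when fed and 14.11, 14.31, 14.17 and 14.22 when fasted. These values overlapped, at -0.16 ± 0.13, and vit-6 was at -0.21 ± 0.13. Neither was called.

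Genes of fat use moved in opposite directions. acs-2 encodes an enzyme that activates fatty acids for oxidation in mitochondria. It read 7.51, 7.05, 6.38 and 7.08 on the fed and 9.77, 9.73, 9.16 and 10.96 on the fasted arrays. All fasted arrays were higher, array 4 most of all, and the rise was 2.90 ± 0.49 (adjusted p = 0.000171). It was the only riser among 25 genes of mitochondrial fatty acid oxidation, of which 4 fell, 2 of them without both arrays numbered 3. cpt-5, a carnitine palmitoyltransferase-like gene, read 7.45, 7.95, 8.51 and 7.93 and 4.76, 4.30, 4.41 and 4.67 on fed and fasted arrays. It fell without overlap, by -3.42 ± 0.23 (adjusted p = 1.78e-10). cpt-3 and cpt-4, of the same family, fell by 1.42 ± 0.35 and 1.4 ± 0.31, and lost their calls without those arrays. ech-7, an enoyl-CoA hydratase-like gene, fell by 2.05 ± 0.33. acdh-3 (0.16) and ech-6 (0.03) were not called.

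Peroxisomal fatty acid oxidation, which also shortens the side chains of ascaroside pheromones, fell in 8 of 11 cases with none rising, at a median of -0.97. acox-1.5, an acyl-CoA oxidase gene, read 9.53, 9.62, 9.90 and 9.62 on the fed and 3.94, 5.32, 4.83 and 5.27 on the fasted arrays. It fell far outside the spread of either group, by -4.83 ± 0.24 (adjusted p = 1.00e-12). daf-22, the thiolase of the last step, read 9.73, 9.47, 10.10 and 10.04 on fed and 9.08, 8.73, 8.86 and 9.27 on fasted arrays. The groups were apart by little, at -0.85 ± 0.21 (adjusted p = 0.00703), a call lost without both arrays numbered 3. dhs-28, the dehydrogenase of the preceding step, fell by 1.18 ± 0.16, acox-1.1 by 1.01 ± 0.16 and acox-3 by 0.73 ± 0.20, a call lost in 4 of 21 alternatives. maoc-1, the hydratase of the chain, was at -0.61 ± 0.22 and was not called, though with the replicate block it was (limma adjusted p = 0.00604). The list had 5 falls without array 3 of the fed group and 4 without both arrays numbered 3.

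Fatty acid synthesis, desaturation and elongation fell in 10 of 21 cases with none rising. fat-7, a stearoyl-CoA desaturase gene, read 7.64, 8.46, 9.35 and 9.82 when fed and 3.77, 3.71, 3.79 and 4.53 when fasted. Its fed values were widely spread and 3 of the 4 fasted arrays were under log2 4, so the change of -4.87 ± 0.47 stands for a fall of at least 4.68. fat-5, the palmitoyl-CoA desaturase gene, read 11.69, 11.74, 11.95 and 11.64 on fed and 10.12, 9.40, 8.37 and 9.84 on fasted arrays. It was lower on all fasted arrays, most so on array 3, by -2.32 ± 0.27 (adjusted p = 1.05e-06). fat-6, a stearoyl-CoA desaturase gene like fat-7, fell by 1.43 ± 0.19. The genes of later desaturation steps towards polyunsaturated fatty acids followed, fat-3 falling by 1.74 ± 0.19 and fat-2 by 1.16 ± 0.15.

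elo-5, which elongates branched-chain fatty acids, read 10.28, 10.39, 11.54 and 11.50 on the fed and 8.48, 8.42, 9.02 and 9.56 on the fasted arrays. Arrays 3 and 4 were higher than arrays 1 and 2 in both groups, and the groups did not overlap, at -2.06 ± 0.38 (adjusted p = 0.000452). elo-6, which acts next on the same branched chains, and acs-1, an acyl-CoA synthetase of the same pathway, fell by 1.98 ± 0.38 and 2.40 ± 0.18. elo-1 (-0.15) and art-1 (0.07) were not called. Of the other acyl-CoA synthetases acs-1, acs-14 (-1.93) and acs-22 (-1.37) were the 3 of 15 that fell, and none rose.

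Among lipases 2 of 8 fell and 1 rose. lipl-5, a lysosomal lipase-like gene, read 8.91, 8.22, 9.29 and 9.08 on fed and 5.82, 6.47, 6.37 and 6.59 on fasted arrays. It was lower throughout the fasted group, by -2.56 ± 0.31 (adjusted p = 2.20e-06). lipl-1, of the same family, was at -3.17 ± 0.36 with a fasted mean under log2 4, which leaves a fall of at least 2.27. atgl-1, the gene of the main triglyceride lipase, was at 0.27 ± 0.18 and was not called. hosl-1, the hormone-sensitive lipase gene, rose by 0.45 ± 0.15, but lost its call in 11 of 22 alternatives. The fatty acid and retinol binding protein genes far-3 and far-7 moved apart. far-3 read 12.25, 12.36, 12.53 and 12.80 when fed and 8.85, 7.65, 8.29 and 8.15 when fasted. far-7 read 7.04, 6.12, 7.73 and 7.79 when fed and 9.23, 8.92, 8.65 and 10.29 when fasted. Neither gene's groups overlapped, and far-3 fell by 4.25 ± 0.34 while far-7 rose by 2.1 ± 0.46. The bright far-1 (-0.32) and far-2 (-0.10) were not called, far-1 being called with the replicate block (limma adjusted p = 0.0192).

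**Figure D3:**
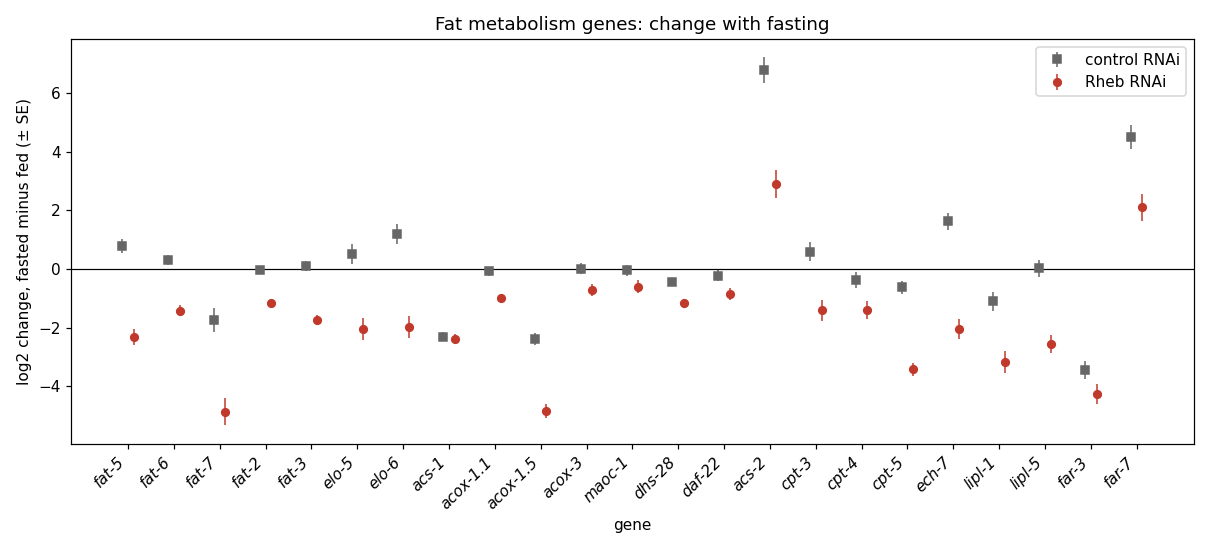
Log2 change with fasting (fasted minus fed, ± SE) of 23 genes of fat metabolism on Rheb RNAi (red circles, 4 against 4 arrays) and control RNAi (grey squares, 5 against 5). Most Rheb RNAi points lie below 0, fat-7 and acox-1.5 lowest at -4.87 and -4.83, and acs-2 (2.90) and far-7 (2.1) lie above it.

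Heme and metal genes fell in 7 of 24 cases with none rising, and in 12 with the replicate block. The heme-responsive gene hrg-7 read 7.87, 9.65, 9.01 and 12.20 on the fed and 4.92, 4.56, 5.57 and 5.44 on the fasted arrays. Fed array 4 was far above the other fed arrays, yet even the lowest fed array exceeded all fasted ones, and the change was -4.56 ± 0.76 (adjusted p = 0.000145). hrg-11.2 (-5.99) and hrg-11.3 (-4.46) fell, as did the cadmium-responsive cdr-1 (-1.65) and cdr-2 (-1.66) and the ferritin gene ftn-2 (-0.93). The fasted mean of cdr-1 was under log2 4, which leaves a fall of at least 1.51. The metallothionein gene mtl-2 was at -0.52 ± 0.25 and was not called.

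Amino acid breakdown fell in 9 of 30 cases and none rose. tdo-2, which opens the ring of tryptophan, read 11.78, 10.98, 11.46 and 11.23 on fed and 9.47, 8.97, 8.53 and 9.81 on fasted arrays. All fasted arrays were lower, by -2.17 ± 0.29 (adjusted p = 9.14e-06). kynu-1, kynureninase of the same pathway, fell by 1.3 ± 0.28 with overlapping arrays. The tyrosine breakdown genes hpd-1 and hgo-1 fell by 2.1 ± 0.33 and 1.52 ± 0.23, and gta-1, the GABA transaminase gene, fell by 1.42 ± 0.25. pccb-1, of propionate breakdown, was at 0.06 and was not called. In the methionine cycle the S-adenosylmethionine synthetase genes sams-1 and sams-4 moved apart, at -1.05 ± 0.23 and 0.62 ± 0.15. Of the 2 other probe sets of sams-1, at -0.86 and -0.67, 1 was not called.

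Detoxification genes, many of them intestinal, fell in large numbers. UDP-glucuronosyltransferases, which attach sugars to foreign compounds, fell in 28 of 57 cases and rose in 2, at a median of -0.62. ugt-66 read 9.11, 8.78, 8.92 and 8.56 on the fed and 5.57, 5.33, 4.55 and 5.05 on the fasted arrays. The groups lay well apart, by -3.72 ± 0.33 (adjusted p = 1.74e-08). ugt-41 (-3.91), ugt-32 (-3.56), ugt-44 (-3.52) and ugt-63 (-3.22) fell by similar amounts. The risers ugt-17 (1.33) and ugt-57 (0.99) were picked after their values were seen.

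Cytochrome P450 genes, which oxidise foreign and internal compounds, fell in 22 of 55 cases and rose in 2. cyp-34A9 read 9.66, 9.32, 10.14 and 9.56 when fed and 5.31, 5.95, 6.92 and 6.20 when fasted. It fell on every fasted array, by -3.58 ± 0.33 (adjusted p = 3.29e-08). cyp-35A2 (-3.17), cyp-25A2 (-2.84) and cyp-35C1 (-2.57) fell. The 2 that rose, cyp-37B1 (1.89) and cyp-13A1 (0.74), were picked after their values were seen. Of 39 glutathione S-transferases 14 fell and none rose. gst-4, a target of the oxidative stress factor SKN-1, read 9.95, 9.77, 10.99 and 10.99 on fed and 8.36, 7.51, 8.98 and 9.42 on fasted arrays. Arrays 3 and 4 were the higher in both groups, the groups did not overlap, and the change was -1.86 ± 0.42 (adjusted p = 0.00392). gst-6 (-3.24) and gst-26 (-2.76) fell further, and gst-1 (0.01) and gst-7 (0.17) were not called. Of 31 ABC transporters 7 fell, 11 with the replicate block and 4 without array 3 of the fed group. The 1 that rose, pgp-4 (0.71), lost its call in 8 alternatives.

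Immune genes fell in 17 of 34 cases with none rising, 10 of them falling without both arrays numbered 3. irg-7, an infection response gene, read 9.61, 10.13, 10.69 and 9.43 on the fed and 6.37, 6.51, 5.89 and 5.94 on the fasted arrays. The groups were far apart, at -3.79 ± 0.39 (adjusted p = 1.95e-07). sysm-1 (-3.90), dct-16 (-3.77), irg-3 (-2.70) and the antimicrobial peptide gene cnc-2 (-1.81) fell. Of 8 genes named for lying downstream of the FOXO factor DAF-16, 4 fell and none rose. dod-3 read 10.24, 9.60, 10.32 and 10.52 on fed and 4.62, 5.58, 7.09 and 6.15 on fasted arrays. Its fasted values were the more spread, all below the fed ones, and it changed by -4.31 ± 0.32 (adjusted p = 1.04e-09). dod-19 (-2.60), dod-24 (-2.24) and dod-23 (-1.73) fell. dod-22 and dod-17 had means of 2.97 and 4.06 in fed Rheb RNAi worms, near the lower end of the scale, and were not called. daf-16 itself was at -0.10 ± 0.26 and was not called.

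Outside the intestine, cuticle collagens of the epidermis fell in 26 of 105 cases and none rose, with 17 falls left without both arrays numbered 3. col-19, an adult collagen gene, read 8.66, 9.32, 8.22 and 8.02 on fed and 6.06, 6.41, 5.73 and 6.52 on fasted arrays. All fasted arrays were lower, by -2.37 ± 0.27 (adjusted p = 1.02e-06). col-140 (-3.37), col-8 (-3.19), col-101 (-2.44) and col-181 (-2.37) fell, with probe sets of col-140, col-8 and col-101 that may match other collagens. In control RNAi worms 51 of the 105 fell with fasting and 1 rose, against 971 and 1351 of all 12277 genes. Against fed control worms 44 of the 105 were lower and 1 higher in fed Rheb RNAi worms, as were 1705 and 2360 of all genes. Of 55 hedgehog-related and patched-related genes 10 fell on Rheb RNAi, grd-3 (-3.85) and grd-5 (-3.25) furthest. The 2 that rose were ptr-3 and ptr-23 (0.67), the latter picked after its value was seen. Transthyretin-like genes fell in 11 of 35 cases, with ttr-18 (-2.31), ttr-44 (-2.24) and ttr-46 (-2.12) lowest, in 17 with the replicate block and in 6 without both arrays numbered 3.

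Muscle sarcomere genes fell in 19 of 40 cases and none rose, with a median of -0.61. unc-87, a calponin-like thin filament gene, read 12.42, 12.07, 12.92 and 12.18 on the fed and 10.63, 11.27, 11.41 and 11.27 on the fasted arrays. The groups were separate, at -1.25 ± 0.24 (adjusted p = 0.000897). tni-3, a troponin I gene, read 9.13, 9.44, 9.71 and 9.16 when fed and 8.03, 7.85, 7.79 and 8.49 when fasted. It too fell without overlap, by -1.32 ± 0.24 (adjusted p = 0.000387). tnt-2 (-1.42), atn-1 (-1.41), unc-27 (-1.39) and dim-1 (-1.12), genes of troponin T, alpha-actinin, troponin I and an immunoglobulin-domain protein, fell. Averaged over the list, single arrays lay between 9.29 and 9.71 in fed, and between 8.79 and 8.97 in fasted Rheb RNAi worms. In control RNAi worms the ranges were 8.38 to 8.71 fed and 8.15 to 8.60 fasted. The fed Rheb RNAi worms started above fed control worms, 31 of the 40 genes being higher and none lower in that comparison, in which 33.1% of all genes were called (19.2% higher) and which uses the same fed arrays. The number of falls went from 19 to 12 in the fit of the 8 arrays alone or without array 3 of the fed group, and to 10 without both arrays numbered 3. Without probe sets that can match several transcripts, as those of unc-87 and tni-3 can, 5 of 17 fell.

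Genes of the nervous system and of energy and protein turnover were mostly not called. Of 28 neuronal and synaptic genes 2 fell, unc-25 (-1.18) of GABA synthesis and bas-1 (-0.63) of serotonin and dopamine synthesis, and of 77 neuropeptides 5 fell and 2 rose, nlp-16 (-1.21) and nlp-40 (-0.80) among the falls. The call of bas-1 was lost in 7 of 22 alternatives. The neuropeptide falls were 8 with the replicate block and 10 without array 2 of the fed group. No gene of glycolysis (15 tested), the respiratory chain (41), mitochondrial ribosomes (57), cytosolic ribosomal proteins (74) or the proteasome (33) was called by limma. At an unadjusted p under 0.05 the numbers higher were 0, 4, 11, 3 and 6, and 1 respiratory chain gene was lower. Of all 12277 genes 1606 were higher and 1533 lower at that limit. With the replicate block no gene of glycolysis was called, against 4 higher and 1 lower of the respiratory chain, 10 higher of mitochondrial ribosomes, 2 higher of cytosolic ribosomal proteins and 7 higher of the proteasome. Their medians lay between -0.12 for glycolysis and 0.21 for mitochondrial ribosomes. The cytochrome c gene cyc-2.1 was at 0.16 ± 0.11, and the ribosomal protein gene rps-17 at 0.07 ± 0.09. Of 28 citric acid cycle genes 1, idhg-2, fell (-1.29 ± 0.34) with overlapping arrays and a call lost in 4 alternatives. In the glyoxylate cycle and gluconeogenesis icl-1 (0.38 ± 0.32) and pck-2 (-0.06 ± 0.14), of isocitrate lyase and PEP carboxykinase, were not called. The trehalase genes split, tre-5 rising by 1.37 ± 0.28 and tre-2 falling, at -0.65 ± 0.13.

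Few genes rose by several log2 units. T22F3.11 read 4.59, 4.21, 3.92 and 3.66 on the fed arrays and 7.38, 9.01, 6.08 and 10.16 on the fasted arrays. All fasted arrays were higher, but they spread over some 4 log2 units with array 3 lowest and array 4 highest, and the change was 4.06 ± 0.71 (adjusted p = 0.000252). adh-1, an alcohol dehydrogenase gene, read 7.20, 7.25, 8.32 and 9.40 on fed and 10.67, 11.12, 11.12 and 12.21 on fasted arrays. It rose without overlap, by 3.23 ± 0.48 (adjusted p = 3.73e-05). aqp-1, a water and glycerol channel gene, read 5.36, 5.57, 6.35 and 7.26 when fed and 8.57, 8.78, 9.57 and 10.36 when fasted. In both groups array 4 was highest and array 1 lowest, and the groups were apart by 3.18 ± 0.53 (adjusted p = 0.000155).

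Small heat shock proteins, chaperones that hold unfolded proteins, split into 3 that rose and 3 that fell of 12. With the replicate block 6 rose, and without both arrays numbered 3 only 1 fell. hsp-12.3 read 7.79, 7.82, 8.74 and 8.80 on the fed and 10.48, 10.50, 11.63 and 10.68 on the fasted arrays. hsp-12.6, a known DAF-16 target, read 4.49, 4.69, 4.88 and 5.29 when fed and 6.02, 6.67, 7.74 and 7.01 when fasted. Both were higher on all fasted arrays, by 2.53 ± 0.47 (adjusted p = 0.000523) and 2.02 ± 0.34 (adjusted p = 0.00016). hsp-16.20 was the other riser, by 1.61 ± 0.36, a call lost without both arrays numbered 3. hsp-17 (-1.81), hsp-12.1 (-1.22) and hsp-25 (-0.83) fell, the call of hsp-12.1 being lost in 6 of 22 alternatives and that of hsp-25 without both arrays numbered 3. hsp-16.2 (0.94) and hsp-16.41 (0.92) were not called, but were with the replicate block (limma adjusted p = 0.0074 and 0.0151). Of 25 antioxidant genes trx-3, a thioredoxin gene, rose by 1.48 ± 0.33 and the superoxide dismutase gene sod-5 by 0.54 ± 0.15, a call lost in 4 of 21 alternatives. The catalase gene ctl-2 fell by 0.83 ± 0.21, a call lost without both arrays numbered 3, and sod-3 was at -0.29 ± 0.19 and was not called.

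zig-3, which encodes a secreted immunoglobulin-domain protein, read 6.75, 6.54, 7.20 and 6.78 on fed and 9.63, 9.06, 8.94 and 10.05 on fasted arrays. srap-1 read 5.83, 6.46, 7.3 and 6.70 on fed and 9.75, 8.95, 9.14 and 9.5 on fasted arrays. Neither overlapped between groups, and the rises were 2.60 ± 0.27 (adjusted p = 2.15e-07) and 2.76 ± 0.30 (adjusted p = 3.64e-07). ptr-3, patched-related, read 4.49, 4.01, 4.50 and 4.65 when fed and 6.77, 6.20, 5.66 and 7.04 when fasted. It rose on every fasted array from near the floor, by 2.01 ± 0.22 (adjusted p = 6.32e-07). F09F9.5 read 2.99, 2.96, 2.59 and 3.79 on the fed and 6.42, 5.49, 6.25 and 6.0 on the fasted arrays. All its fed arrays were under log2 4, which makes the rise at least 2.04. The chemoreceptor gene srh-212 read 2.31, 2.56, 2.53 and 2.95 on fed and 5.81, 4.31, 5.21 and 4.45 on fasted arrays. It was below log2 4 on all fed and above it on all fasted arrays, a rise of at least 0.94. Further rises were those of F40G12.5 (3.0, at least 2.49), icmt-1 (2.14, at least 1.91) and C06G3.3 (1.92).

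**Figure D4:**
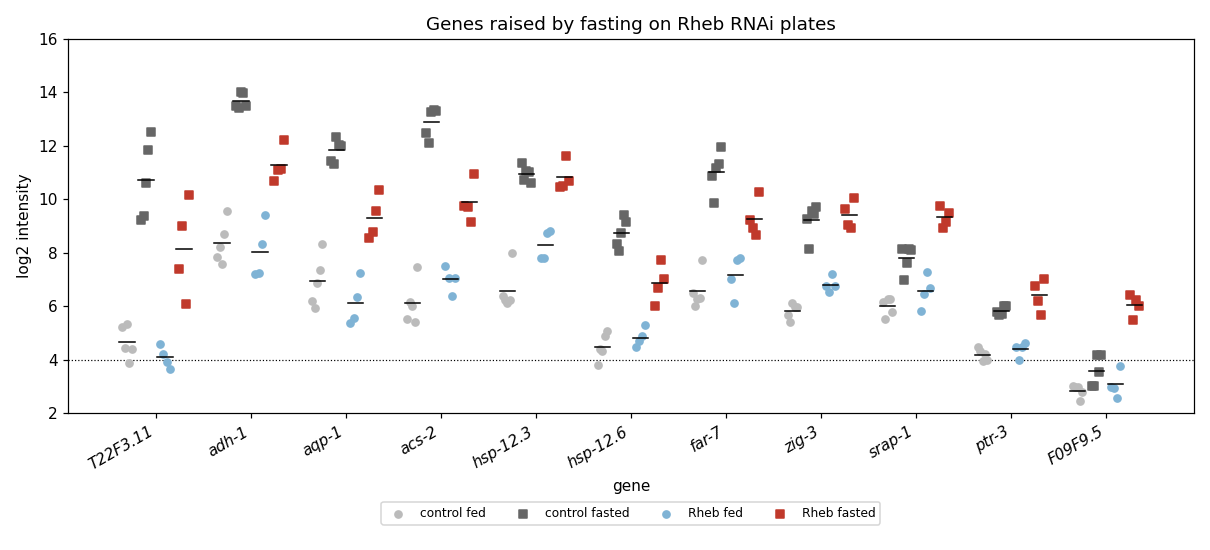
Log2 intensity of 11 genes that rose with fasting on Rheb RNAi, on every control and Rheb RNAi array, with black bars at group means and a dotted line at log2 4. In each gene the 4 fasted Rheb RNAi arrays (red) lie above the 4 fed ones (blue), acs-2 going from 7.01 to 9.91.

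Smaller rises were seen in genes of dividing cells, ribosome biogenesis and large chaperones. Of these lists 12.8%, 14.3% and 11.1% rose, against 3.23% of all genes. Most of these calls were lost in some alternatives. Of 39 DNA replication and cell cycle genes 5 rose and none fell, at a median of 0.30. rnr-1, the large subunit of ribonucleotide reductase, read 11.42, 11.85, 10.94 and 11.23 on the fed and 12.23, 12.21, 11.80 and 11.64 on the fasted arrays. Fed array 2 overlapped the fasted arrays 3 and 4, and the change was 0.61 ± 0.19 (adjusted p = 0.0388). The other risers were knl-1 (0.66), cdc-6 (0.51), mcm-5 (0.39) and mcm-4 (0.38). The count of 5 was 18 with the replicate block and 0 in the fit of the 8 arrays alone. It was 0 without array 3 of the fed or array 2 of the fasted group, 1 without array 1 of either group, 2 without array 4 of the fed or array 3 of the fasted group, 3 without array 4 of the fasted group, and 11 without array 2 of the fed group. Ribosome biogenesis had 4 risers of 28, 10 with the block and 0 in the fit of the 8 arrays. Single arrays took it to 0 (array 4 of the fed group) or 1 (array 3 of either group, array 2 of the fasted group). Large chaperones had 3 of 27, calreticulin's crt-1 (0.68), calnexin's cnx-1 (0.49) and cct-2 (0.43), 11 with the block and 0 in the fit of the 8 arrays. Single arrays took it to 0 (array 3 of either group, array 2 of the fasted group) or 5 (array 2 of the fed group). Of 37 translation factors 2 rose (5.41%), and of 32 aminoacyl-tRNA synthetases 1 (3.12%), with 0 falling in either list. The germline list had 1 riser of 39 (2.56%), mes-4 (0.52), whose call was lost in 8 alternatives. No oocyte gene (28 tested) or sperm gene (45 tested) was called, and 2 sperm genes were called higher with the replicate block. At an unadjusted p under 0.05 there were 0 oocyte and 3 sperm genes, where 1606 of all 12277 genes were higher and 1533 lower. In fed Rheb RNAi worms, against fed controls, 17 of the 39 germline genes and 18 of the 28 oocyte genes were lower, where 13.9% of all genes were. Of 34 embryonic transcription factors 3 rose, ref-1 (0.91), hnd-1 (0.93) and ceh-36 (0.91). The call of hnd-1 was lost in 3 of 22 alternatives and that of ceh-36 without array 2 of the fasted group. The count was 11 with the block and 7 without array 2 of the fed or array 4 of the fasted group.

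Signalling genes were mostly not called. Of 14 genes of the TOR pathway 1 changed. sgk-1, a kinase that acts below TOR complex 2, read 8.62, 8.25, 9.14 and 8.22 on fed and 7.25, 7.04, 7.86 and 7.60 on fasted arrays. All fasted arrays were lower, by -1.12 ± 0.23 (adjusted p = 0.00168). flcn-1 (0.34) and ragc-1 (-0.04), which act on TOR at the lysosome, were not called. Of 21 insulin-like peptide genes ins-7, an agonist that is made in the intestine, was the 1 that changed. It read 13.01, 12.27, 13.01 and 12.49 on the fed and 11.75, 10.66, 11.41 and 11.21 on the fasted arrays. The groups did not overlap, at -1.43 ± 0.30 (adjusted p = 0.00201). Of the nuclear hormone receptors 12 of 164 fell and 9 rose, shares close to those of all genes. The falls were 20 without array 2 of the fed group and the rises 5 without array 3 of the fasted group, 7 and 2 without both arrays numbered 3, and 19 and 24 with the replicate block. nhr-80, known to promote desaturase expression, read 6.97, 6.85, 7.27 and 6.22 when fed and 5.59, 5.38, 5.31 and 5.25 when fasted. It was lower throughout, by -1.45 ± 0.23 (adjusted p = 7.34e-05). nhr-68, which acts in the switch to the propionate shunt, read 6.37, 6.15, 6.85 and 6.70 when fed and 4.48, 5.26, 4.2 and 5.09 when fasted. It also separated the groups, at -1.76 ± 0.40 (adjusted p = 0.00389), a call lost without both arrays numbered 3. nhr-49, which activates acs-2 and the desaturase genes, was at 0.25 ± 0.16 and was not called.

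Whether the response on Rheb RNAi differed from that on control RNAi was tested as an interaction. Of 12277 genes 600 differed (4.89%), 469 (3.82%) responding lower and 131 (1.07%) responding higher on Rheb RNAi. With the replicate block 1417 differed, and 383 without both Rheb arrays numbered 3. Control fasting by itself changed 2322 genes (18.9%).

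The differences took 3 forms in the group levels. The saposin-like gene spp-12, the cysteine protease gene cpr-2 and the lysozyme gene ilys-3 were higher in fed Rheb RNAi than in fed control worms and went down on fasting. spp-12 was at 7.90 ± 0.93 (SD, n = 5) in fed and 6.09 ± 0.72 (SD, n = 5) in fasted control worms, and at 13.30 ± 0.46 (SD, n = 4) and 6.37 ± 0.53 (SD, n = 4) in Rheb RNAi worms, fed and fasted. The responses differed by -5.11 ± 0.57 (adjusted p = 3.31e-06), the fasted groups having similar means. ilys-3 was at 6.42 and 11.32 in fed and fasted control worms and at 13.002 and 11.69 on Rheb RNAi. It rose with fasting on control RNAi, was high in both Rheb RNAi groups, and differed by -6.22 ± 0.58 (adjusted p = 2.31e-07). Its own fall on Rheb RNAi, -1.31 ± 0.43, lost its call in 11 of 22 alternatives. cpr-2 (-6.14 ± 0.67) rose with fasting in control worms and fell in Rheb RNAi worms. cyp-34A9 likewise rose in control worms (1.73) and fell on Rheb RNAi, a difference of -5.31 ± 0.44. Y51B9A.8, not called in control worms (0.56), fell on Rheb RNAi (-4.56) and differed by -5.12 ± 0.45. With values below log2 4 set to 4 its fall was -4.19 and the difference -4.75.

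C17H12.6, clec-67, C05D12.3 and F49F1.7 fell steeply with fasting in control worms but were already low in fed Rheb RNAi worms. C05D12.3, at -0.79 ± 0.32 on Rheb RNAi, was not called there, but was with the replicate block (limma adjusted p = 0.0239). clec-67 was at 9.64 ± 0.65 (SD, n = 5) in fed and 4.69 ± 0.13 (SD, n = 5) in fasted control worms, and at 4.29 ± 0.25 (SD, n = 4) and 4.08 ± 0.23 (SD, n = 4) on Rheb RNAi. Of these 4 groups the fed control worms alone stood high, and the difference was 4.74 ± 0.34 (adjusted p = 8.38e-09). F55G11.2 (5.78) showed the same pattern. irg-8 (3.75) and the inositol transporter gene hmit-1.1 (3.42) also started lower, and fell on Rheb RNAi by 1.21 and 1.79 against -4.96 and -5.20 in control worms. Those falls on Rheb RNAi lost their calls in 5 of 22 alternatives for irg-8 and, for hmit-1.1, without fed array 3 and without both arrays numbered 3. pud-4 was the exception among the largest positive differences (3.86 ± 0.75), as it rose on Rheb RNAi (2.30) and fell on control RNAi (-1.56). That rise lost its call in the fit of the 8 arrays and without both arrays numbered 3. clec-61 rose in control worms (4.66), was not called on Rheb RNAi (-0.30) and differed by -4.96 ± 0.74 (adjusted p = 0.000149).

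Other digestive genes ended lower on Rheb RNAi than on control RNAi. lys-7 was at 14.80 ± 0.18 (SD, n = 5) in fed and 14.18 ± 0.24 (SD, n = 5) in fasted control worms, against 14.73 ± 0.11 (SD, n = 4) and 8.61 ± 0.99 (SD, n = 4) on Rheb RNAi. The fed means were within 1 SD of each other and of these 4 groups the fasted Rheb RNAi worms alone were low, a difference of -5.51 ± 0.42 (adjusted p = 2.32e-08). lys-7 fell on TOR RNAi as well, at -3.86 ± 0.37, and its difference from that response (2.27 ± 0.48) was called but lost in 12 of 26 alternatives. asp-17 (-5.18 ± 0.41), asp-13 (-3.90), lys-10 (-4.39) and asah-1 (-2.45) also fell to lower levels on Rheb RNAi, at 3.44, 3.12, 2.90 and 4.73 against 9.74, 9.20, 6.74 and 7.36 in fasted control worms. The fasted Rheb RNAi means of asp-17, asp-13 and lys-10 lay under log2 4, and with values below 4 set to 4 their differences were -4.61, -3.02 and -3.29. By contrast cpr-4 (0.50 ± 0.23), asp-1 (-0.18 ± 0.43), ctsa-1.2 (-0.47 ± 0.40) and ilys-5 (0.17 ± 0.49) fell on both kinds of plate, and their differences were not called.

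**Figure D5:**
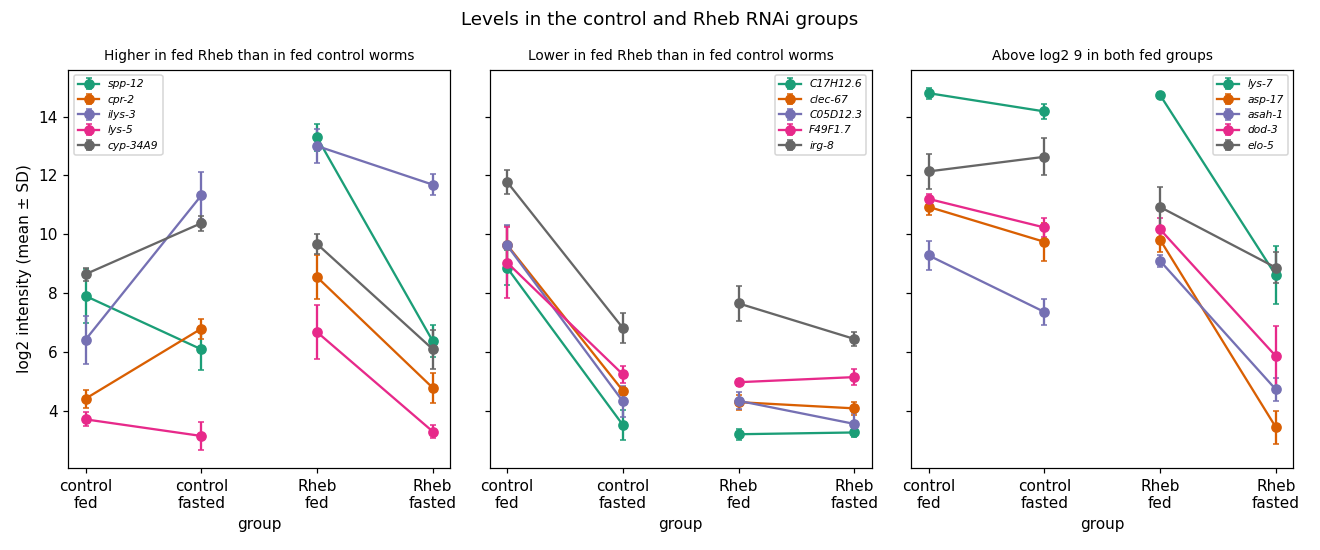
Mean log2 intensity (± SD) of 15 genes in the fed and fasted groups of control RNAi (5 arrays each) and Rheb RNAi (4 each), lines joining fed and fasted worms on the same plates. The left panel shows genes higher in fed Rheb RNAi than in fed control worms, the middle panel genes lower there, and the right panel genes above log2 9 in both fed groups, such as lys-7, at 8.61 in fasted Rheb RNAi and 14.18 in fasted control worms.

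Fat metabolism also differed between the responses. Of 21 genes of synthesis, desaturation and elongation 11 had a lower response on Rheb RNAi and none a higher one. fat-5 rose by 0.79 on control and changed by -2.32 on Rheb RNAi, a difference of -3.11 ± 0.36 (adjusted p = 5.54e-06). elo-6 rose by 1.18 on control RNAi and differed by -3.16 ± 0.51 (adjusted p = 0.000367), and elo-5 (-2.55), fat-7 (-3.13), fat-3 (-1.83) and fat-6 (-1.73) differed too. In mitochondrial oxidation the rise of acs-2 was smaller on Rheb RNAi, 2.90 against 6.78, a difference of -3.88 ± 0.66 (adjusted p = 0.000596). ech-7 rose by 1.62 in control worms and differed by -3.66 ± 0.44 (adjusted p = 8.84e-06). The lipase gene lipl-5 was at 0.01 ± 0.28 in control worms, not called, and differed by -2.58 ± 0.42 (adjusted p = 0.000367). Among stress and signalling genes the rise of hsp-12.6 was smaller, by -2.22 ± 0.46, and the fall of ins-7 was shallower, by 2.98 ± 0.41. In fed Rheb RNAi against fed control worms 7 of 12 small heat shock protein genes were higher and 0 lower. Of 21 insulin-like peptide genes 13 were higher and 0 lower there, where 19.2% of all genes were higher. The part of these starting levels in the differences was not tested. F09F9.5 rose by 2.96 on Rheb RNAi and by 0.75, below log2 4, in control worms, a difference of 2.21 ± 0.37. srh-212 was not called in control worms (0.16) and differed by 2.19 ± 0.31, or by 0.94 with values below log2 4 set to 4. Both genes were under log2 4 on all fed Rheb RNAi arrays and passed the filter through groups where they were higher, fasted Rheb RNAi among them. Their differences are therefore given as sizes only. No muscle gene of 40 had a difference that was called, where 4.89% of all genes did. The median difference of the 40 was -0.48, against 0.02 for all genes.

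The response on TOR RNAi, tested against that on Rheb RNAi, differed at 39 genes (0.318%), 23 higher (0.187%) and 16 lower (0.13%). The 39 became 25 without array 2 of the fasted Rheb group, 59 without array 4 of it and 106 with the replicate block. On TOR RNAi itself 766 genes changed (6.24%), with 3 arrays a group. spp-12 fell by less on TOR RNAi (-2.30 against -6.93), a difference of 4.62 ± 0.65 (adjusted p = 0.00121). Its fed mean there was 10.16 ± 0.53 (SD, n = 3) against 13.30 on Rheb RNAi. clec-76 (3.04 ± 0.46), Y51B9A.8 (2.94 ± 0.51), fipr-26 (3.28 ± 0.61), ugt-66 (2.78 ± 0.50), F13H8.3 (2.50 ± 0.43) and T19B10.2 (2.28 ± 0.42) likewise had lower responses on Rheb RNAi. The calls of fipr-26, ugt-66 and T19B10.2 were lost without both Rheb arrays numbered 3. sysm-1 and dod-24 fell by more on TOR RNAi, with differences of -4.01 ± 0.67 (adjusted p = 0.00493) and -3.54 ± 0.39 (adjusted p = 8.52e-05). dod-24 was at 11.12 ± 0.41 (SD, n = 3) and 5.33 ± 0.24 (SD, n = 3) in TOR RNAi worms, fed and fasted, and at 7.67 ± 0.26 (SD, n = 4) and 5.43 ± 0.54 (SD, n = 4) on Rheb RNAi, where the fed level was the lower. C14C6.5 (-3.41), mbug-1 (-3.29), E04D5.4 (-2.69) and clec-67 (-2.71) differed in the same direction. The large falls of cpr-1 (-6.94 on Rheb and -6.56 on TOR RNAi), asp-17 (-6.37 and -6.02) and acox-1.5 (-4.83 and -5.30) and the rise of acs-2 (2.90 and 2.69) were not called different.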

How the data were processed

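The deposited values are probe set intensities on a linear scale, made by the authors with GCRMA per the submitters' processing notes, and the study's design text names GeneSpring GX 7.3.1. No source used here states the GCRMA version. GCRMA subtracts background and makes array distributions alike, which hides a change shared by all transcripts. Log2 was taken of the deposited intensities. Of 22625 probe sets, 77 are controls, 20766 name 1 gene, 887 several and 895 none; only those naming 1 gene were used, and symbols looked up in RefSeq for 20701 of them changed in 0 cases. A gene was read by its probe set of highest mean and tested where log2 exceeded 4 on at least 3 arrays. No column was left unused.

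Group means of all 6 groups over 24 arrays were fitted with limma 3.58.1 (R 4.3.3) and empirical Bayes variances, with Benjamini-Hochberg adjustment over 12277 genes at 0.05. Differences between responses are interaction terms. Counts of gene lists are described beside those of all genes, with no test of the lists. The lists and the genes were chosen with earlier results of these data known. Named genes are anchors, the 15 largest rises and falls without overlap, the 8 most extreme differences each way, and per list up to 8 called genes by p, 2 uncalled by mean and, in lists of at most 12, any. Floored changes set array values below log2 4 to 4. On data simulated for this comparison 56, 81 and 63 of 12277 genes were changed 1.5-fold, 2-fold and 4-fold. The fit found 30.4%, 74.1% and 96.8% of them and made 13 false calls. The simulated noise was independent between arrays and left out the pairing by number, so these shares need not hold for the real arrays.

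The replicate numbers pair the arrays: deviations from group means correlated at 0.50, 0.73, 0.44 and 0.73 between fed and fasted Rheb RNAi arrays of the same number. The main fit leaves this pairing out, so a gene not called there can be called with a block. The block by number is an alternative, beside other variance models, scalings, filters, probe set choices, sample sets and leaving out each array. That block is shared by all RNAi plates, while the correlations were taken within plates. P-values measure only the spread between these samples, which the labels call biological replicates. No sequences are printed, as none was used here.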

Additional observations from a re-analysis of the deposited data

Results flagged for a closer look

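The fed and the fasted group of each gene given array by array were searched for an array standing apart, as chance marks in about 1 in 20 groups, and 2 were found. vha-6 was at 9.25 on array 3 of the fed Rheb RNAi group, above the other fed arrays, and fat-7 was at 4.53 on array 4 of the fasted Rheb RNAi group, above the others, which were all below log2 4.

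The response of a named gene differed, by the interaction test, between Rheb and control RNAi in 32 cases and between TOR and Rheb RNAi in 14. Those with a lower response on Rheb than on control RNAi (log2, Rheb minus control) were ilys-3 (-6.22), cpr-2 (-6.14), lys-7 (-5.51), cyp-34A9 (-5.31), asp-17 (-5.18), Y51B9A.8 (-5.12), spp-12 (-5.11), clec-61 (-4.96), lys-10 (-4.39), asp-13 (-3.90), acs-2 (-3.88), ech-7 (-3.66), elo-6 (-3.16), fat-7 (-3.13), fat-5 (-3.11), lipl-5 (-2.58), elo-5 (-2.55), asah-1 (-2.45), hsp-12.6 (-2.22), fat-3 (-1.83) and fat-6 (-1.73). Those with a higher one were F55G11.2 (5.78), C17H12.6 (5.4), clec-67 (4.74), C05D12.3 (4.52), F49F1.7 (3.97), pud-4 (3.86), irg-8 (3.75), hmit-1.1 (3.42), ins-7 (2.98), F09F9.5 (2.21) and srh-212 (2.19). F09F9.5 and srh-212 were under log2 4 on all fed Rheb RNAi arrays and passed the filter through groups where they were higher. Between TOR and Rheb RNAi (TOR minus Rheb) the higher responses were those of spp-12 (4.62), fipr-26 (3.28), clec-76 (3.04), Y51B9A.8 (2.94), ugt-66 (2.78), F13H8.3 (2.50), T19B10.2 (2.28) and lys-7 (2.27), and the lower ones those of sysm-1 (-4.01), dod-24 (-3.54), C14C6.5 (-3.41), mbug-1 (-3.29), clec-67 (-2.71) and E04D5.4 (-2.69).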

How the results depend on the processing

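For fasting on Rheb RNAi 1461 genes were called (1064 lower, 397 higher), and 0 were called in the opposite direction under any of the alternatives that give 1 value per gene. The falls kept within 1.5 times except for 1732 with a replicate block within each RNAi plate, and the rises did not keep. With a replicate block 2960 genes were called, 1502 higher, and all 1461 were among them. The block within each plate gave 4207 (2475 higher) and the block in the 8 arrays alone 2934 (1434 higher). Without both Rheb arrays numbered 3, 822 were called (101 higher). Leaving out single arrays gave 1015 to 1957 called and 175 to 700 higher, the extremes being fed arrays 3 and 2, with 217 and 218 higher without fasted arrays 2 and 3. Rises numbered 660 with arrays centred, 258 without probe sets that can match several transcripts (fewer genes tested), and 199 in the 8 arrays alone. The difference from control (600) was 1417 with the replicate block, 2521 with the block within plates and 383 without both numbered 3. The difference from TOR (39) was 106, 178 and, without multi-matching probe sets, 24, and 25 to 59 leaving out single arrays (Rheb fasted 2 and 4). The block within plates, the block in the 8 arrays alone and the fit without both numbered 3 were chosen after seeing the data. Except where a setting tests fewer genes or arrays, the cause was not tested. Of 279 named genes called, 204 kept their call in all alternatives. Among differences from TOR the calls of ugt-66, T19B10.2 and fipr-26 were lost without both Rheb arrays numbered 3, that of ugt-66 also in the compared groups alone, and that of lys-7 in 12 of 26 alternatives. Levels under log2 4 carry little beyond background.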
